A study of Mus musculus with 10 samples.

Results

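Immediate early genes were followed through single cells of the *Grem1* and *Lepr* lineages after the cells had been isolated from bone and cartilage. The 10 genes were taken by name from the 29183 genes listed in full for both lineages: *Fos*, *Fosb*, *Fosl2*, *Atf3*, *Egr1*, *Egr2*, *Dusp1*, *Btg2*, *Gadd45b* and *Gadd45g*. All 10 were listed for both lineages, and all 10 passed the filter on low counts in both comparisons. They were chosen by name and by no rule on measured values, but with earlier results of these data known. Levels are given as unique molecular identifiers (UMIs, tags that let copies of 1 molecule be counted once) of a gene per 10000 UMIs over the 29183 genes. These levels were not divided by gene length and are not compared between genes.

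The study traced cells of the *Grem1* and *Lepr* lineages in the hind limbs of C57BL/6 mice and sorted single cells into 96-well plates. *Grem1-TdT* mice carry a tamoxifen-induced Cre driven by *Grem1* and a Cre-dependent TdTomato reporter, so the label marks cells that expressed *Grem1* at induction and their progeny. These mice were 5 to 6 weeks old when tamoxifen chow began, which they ate for 2 weeks. *LepR-TdT* mice of matched age carry the same kind of reporter under a Cre driven by *Lepr*; the sample labels name the chow for the *Grem1-TdT* mice alone, and the series text names it for both.

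Isolation differed between the lineages. Articular cartilage (AC) and growth plate (GP) of *Grem1-TdT* mice were cut out, minced and digested with collagenase type II, whereas whole *LepR-TdT* bones were crushed in a mortar, minced and digested with collagenase type I, both at 2.5 mg/mL. Live TdTomato-positive cells were sorted from both, and CD45-Ter119-CD31- cells were selected for the *Lepr* lineage only. Lineage, tissue and isolation procedure thus cannot be told apart. The labels do not say whether a plate holds AC cells, GP cells or both, nor how many mice gave each plate, so the p-values measure the spread between plates.

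There were 8 *Grem1*-lineage plates (1, 2 and 4 to 9) with 768 wells and 2 *Lepr*-lineage plates with 162 wells, of which 684 and 160 wells had 350 or more genes detected over the genes listed for their own lineage and entered as cells. Over the genes listed for both lineages, all 684 and 77 of the 160 reached this minimum. *Grem1*-lineage cells were split by their UMIs of *Clu*, *Cilp* and *1500015O10Rik*, which are markers of articular chondrocytes, against *Cnmd*, which encodes chondromodulin, a marker of growth plate chondrocytes. The 414 cells in which the sum of the former exceeded *Cnmd* form the Clu group, and the other 270 the Cnmd group. Each plate held cells of both groups. Beside the 4 genes of the split, 9 articular markers had a summed level of 120 in the Clu group and 80.3 in the Cnmd group (means over plates) with overlapping ranges. Of these, 8 were at a higher level in the Clu group and *Fn1* in the Cnmd group. Over all cells of a group *Fn1* stood at 50.8 in the Clu group and 75.1 in the Cnmd group, most of the latter's sum. Among the other 8, *Gas1* stood at 28.9 and 0.935, *Cilp2* at 12.9 and 1.23 and *Cd200* at 12.6 and 3.02. The other 5 growth plate markers stood at 138 in both groups, with *Col10a1* and *Comp* higher in the Clu group and *Acan*, *Epyc* and *Fgfr3* higher in the Cnmd group. The groups are therefore named by their splitting genes only. In the *Lepr* lineage a list of 7 marrow stromal markers reached 327, against 2.05 and 0.935 in the Clu and Cnmd groups. Blood markers reached 255 in the *Lepr* lineage and averaged 14.0 and 13.8 in the Clu and Cnmd groups, while of 8 endothelial markers 5 were at 0 in the *Lepr* lineage. Cells had a median of 1217 UMIs in the Clu group, 2218.5 in the Cnmd group and 505 in the *Lepr* lineage. The same set of 96 well barcodes served every *Grem1*-lineage plate, and 92 of them recurred on the *Lepr*-lineage plates, so a barcode names a well and not a cell.

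Immediate early genes are transcribed within minutes of a stimulus from factors already present in the cell, and need no new protein synthesis. Their transcripts are short-lived, and many of the proteins they encode are transcription factors that act on a later wave of genes or enzymes that shut the signal down again. In cartilage and bone they respond to growth factors, load and injury, and the digestion and sorting that yield single cells are known to induce them in several tissues. No tissue that was not digested was measured here, so the part of isolation in these levels was not tested.

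Short stretches ahead of the start sites of 4 members are shown because they carry response elements bound by known transcription factors. RefSeq promoter windows of 250 bases before to 50 after a start (build GRCm38.p6) were given for 9 of the 10 members. Each sequence runs 5′ to 3′ on the strand of its gene, with the element in capitals. The capitals mark the full cAMP response element (TGACGTCA, bound by the CREB and ATF family) in *Btg2* and *Dusp1*, the CArG box (bound by serum response factor) in *Egr2* and an EGR site (GCGNGGGCG, bound by the EGR proteins) in *Fosb*.
Btg2, chr1:134079299-134079346, minus strand: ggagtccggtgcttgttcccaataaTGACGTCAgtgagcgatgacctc
Dusp1, chr17:26508593-26508640, minus strand: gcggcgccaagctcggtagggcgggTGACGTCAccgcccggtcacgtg
Egr2, chr10:67537469-67537518, plus strand: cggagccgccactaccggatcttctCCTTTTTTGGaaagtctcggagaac
Fosb, chr7:19310072-19310120, minus strand: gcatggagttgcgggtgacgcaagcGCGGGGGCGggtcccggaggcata
None of these stretches overlaps an exon in the GENCODE annotation, although those of *Egr2* and *Dusp1* lie within longer transcripts of the same gene. On both strands, the full cAMP response element was found in 2 of the 9 members and in 1.79% of 32851 promoter windows, and the CArG box in 1 member and 1.63% of windows. The EGR site was found in 4 members, *Btg2*, *Fosb*, *Fosl2* and *Gadd45b*, and in 5.55% of windows. The AP-1 site (TGACTCA or TGAGTCA) was found in none of the 9 and in 5.20% of windows, which says only that these letters are not in the windows. A member counted if any of its windows held the element, and *Egr2* had several windows, while the percentages are of single windows. Counts and percentages are thus not on the same scale. A match is a description of the sequence and not a site shown to be bound.

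The summed share of the 10 genes was taken over the 29183 genes listed for both lineages, not over all UMIs of a cell. Over the 8 plates the summed share of the members was 231 ± 42.4 per 10000 UMIs in the Clu group (SD, n = 8 plates, from 157 to 278). In the Cnmd group it was 327 ± 112 (n = 8, from 168 to 434). In the *Lepr* lineage it was 65.8 on plate 1 and 54.5 on plate 2, below each *Grem1*-lineage plate. Plates of 1 group differed by more than counting allows: the SD from counting alone averaged 5.92 in the Clu group and 6.33 in the Cnmd group, and the SE from the spread of cells within a plate 22.1 and 32.4.

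The gap between the Clu and Cnmd groups was not the same on each plate. The Cnmd group stood at 1.07 times the Clu group on plate 1, 1.04 times on plate 2 and 0.952 times on plate 4. On plates 5, 6, 7, 8 and 9 the ratio was 1.63, 1.55, 1.71, 2.00 and 1.26. Within the Cnmd group, plates 1, 2 and 4 lay between 168 and 242 and plates 5 to 9 between 334 and 434 with no overlap, while the Clu group on plates 5 to 9 (217 to 278) overlapped that on plates 1, 2 and 4 (157 to 254). The labels name no batch, this division of the plates was known from earlier results of these data, and no test was made between the plate sets.

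**Figure D1:**
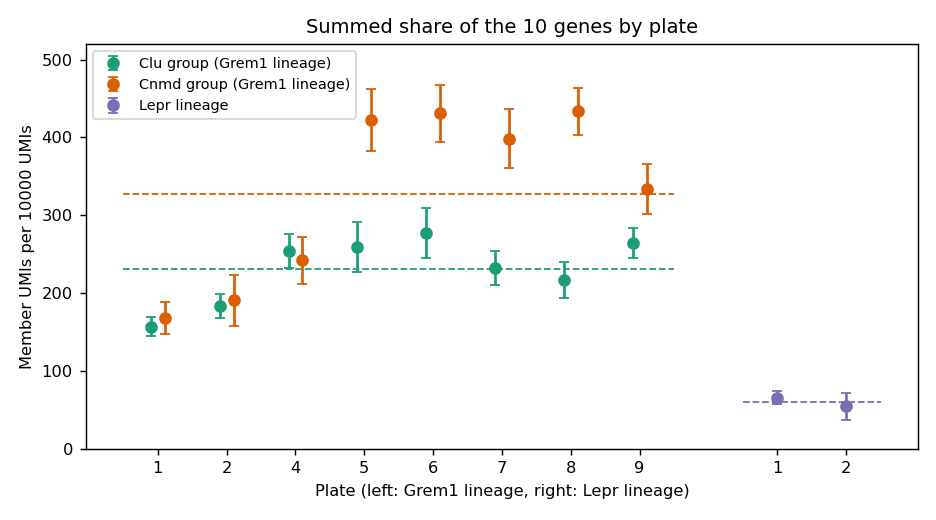
Summed UMIs of the 10 genes per 10000 UMIs (vertical axis) on each plate (horizontal axis), in the Clu group, the Cnmd group and the *Lepr* lineage. Points are plate sums, bars are ± 1 SE from the spread of cells within the plate, and dashed lines are the means over plates of 231, 327 and 60.1. The groups lie close together on plates 1, 2 and 4, and the Cnmd group lies higher on plates 5 to 9.

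Other transcripts moved with this division of the plates. *Actb*, which encodes beta-actin and was fixed as a reference for level, stood at 62.4 to 89.3 per 10000 in the Clu group on plates 1, 2 and 4 and at 221 to 337 on plates 5 to 9. In the Cnmd group it stood at 81.2 to 85.3 and at 373 to 553. *Eef1a1*, which encodes a translation elongation factor, did not divide in this way: it was at 20.9 to 22.5 and 13.5 to 23.8 in the Clu group, and at 33.8 to 36.7 and 27.1 to 38.3 in the Cnmd group. *Gapdh* reached at most 1.97 in any plate and group, too few UMIs to serve as a reference. Osteoblast markers were high in the Clu group on plates 5 (376) and 7 (375) and in the Cnmd group on plate 9 (232), against 1.42 to 52.8 in the other sums of both groups. Blood markers lay between 0 and 54.5, with 32.8 or more only on plates 1 and 5. Growth plate markers in the Clu group did follow the division, at 136 to 155 on plates 1, 2 and 4 and 188 to 229 on plates 5 to 9, as did *Cytl1*, which encodes a cytokine-like protein of cartilage, at 1268 to 1277 and 1363 to 1581. The part of these transcripts in the division of the plates was not tested.

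Between the groups, the members did not move as 1 block: some were higher in the Cnmd group and others were not. Sums per plate were tested with edgeR, whose scaling by trimmed means (TMM) sets the bulk of genes to no difference. This fit did not pair the groups by plate. Of the 10 members, 2 were higher in the Cnmd group at an adjusted p under 0.05, *Gadd45g* and *Fosb*, and none was lower. With pairing by plate, given below, *Egr1* was also called as lower and *Atf3* as higher. Over all 1071 genes tested, 41% were called in either direction and 20.1% as higher in the Cnmd group, so 2 of 10 is near the share for all genes. The median log2 fold change was 0.057 for the members and -0.014 for all genes.

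*Gadd45g* and *Gadd45b* encode small stress-induced proteins that bind kinases upstream of p38 and JNK. *Gadd45g*, at chr13:51846678-51848468 on the plus strand, had levels of 10.1, 19.5 and 32.9 per 10000 in the Clu group (lowest, median and highest plate) and of 24.0, 52.2 and 76.9 in the Cnmd group. It was higher in the Cnmd group on 8 of 8 plates, by 1.53 to 4.16 times, although the ranges of the groups overlap. The log2 fold change was 1.09 ± 0.28 (SE; edgeR adjusted p = 0.0042). *Gadd45b* stood at 4.01, 5.97 and 9.37 in the Clu group and at 3.75, 7.96 and 13.9 in the Cnmd group, with a log2 fold change of 0.031 ± 0.27 (adjusted p = 0.94). The 2 genes thus differed in outcome under the same test, but the difference between their fold changes was not itself tested.

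Among the partners of JUN proteins in the AP-1 factor, *Fosb* differed most. *Fosb*, which lies at chr7:19302696-19310051 on the minus strand, stood at 3.26, 6.88 and 9.56 in the Clu group and at 6.50, 16.2 and 24.4 in the Cnmd group, and was higher in the latter on 8 of 8 plates. Its log2 fold change was 0.93 ± 0.30 (edgeR adjusted p = 0.018). On plates 1, 2 and 4 the Cnmd group (6.50 to 10.0) overlapped the Clu group (4.71 to 8.78), and on plates 5 to 9 its 15 to 24.4 lay above the 3.26 to 9.56 of the Clu group. On plates 1, 2 and 4 alone *Fosb* was not called, with a log2 fold change of -0.029 after TMM scaling. Its levels, which carry no such scaling, were higher in the Cnmd group on each of these plates.

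*Fos* (chr12:85473890-85477273, plus strand) stood at 35.4, 46.8 and 58.7 in the Clu group and at 44.8, 90.7 and 114 in the Cnmd group, higher in the latter on 7 of 8 plates. With a log2 fold change of 0.49 ± 0.25 it missed the threshold (edgeR adjusted p = 0.13). Its levels in the Cnmd group fell apart by plate, at 44.8 to 49.2 on plates 1, 2 and 4 and at 83.9 to 114 on plates 5 to 9. *Fosl2*, a further FOS family gene, stood at 2.58, 4.56 and 6.51 in the Clu group and at 0.750, 5.62 and 7.06 in the Cnmd group. Its log2 fold change was -0.20 ± 0.34 (adjusted p = 0.65), and the lowest Cnmd value came from plate 1.

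*Atf3*, a stress-induced transcription factor of the ATF and CREB family, stood at 4.24, 7.5 and 9.28 in the Clu group and at 7.0, 16.9 and 20.2 in the Cnmd group. It was higher in the Cnmd group on 6 of 8 plates, with a log2 fold change of 0.64 ± 0.27 (edgeR adjusted p = 0.069). Like *Fos*, it divided by plate within the Cnmd group, from 7.0 to 7.69 on plates 1, 2 and 4 and from 16.4 to 20.2 on plates 5 to 9. Its levels in the Clu group, 4.24 to 9.04 and 5.36 to 9.28, overlapped between these plates.

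The zinc finger factors EGR1 and EGR2 bind GC-rich elements and act on growth factor responses. *Egr1* was the member with the lowest log2 fold change, and the Clu group held the higher level on 7 of 8 plates. It stood at 20.7, 40.9 and 53.7 in the Clu group and at 12.5, 31.1 and 48.8 in the Cnmd group, with overlapping ranges. The log2 fold change was -0.72 ± 0.30 (edgeR adjusted p = 0.064). *Egr2*, with 118 and 138 UMIs in all, stood at 0.943, 2.39 and 3.26 and at 0.669, 1.75 and 4.02, with a log2 fold change of -0.44 ± 0.35 (adjusted p = 0.32).

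*Dusp1*, a phosphatase that switches MAP kinases off, and *Btg2*, which restrains cell division and binds the enzymes that shorten poly(A) tails, did not pass the threshold. *Dusp1* stood at 42.4, 49.7 and 64.3 in the Clu group and at 44.2, 53.9 and 75.9 in the Cnmd group, with a log2 fold change of -0.26 ± 0.16 (edgeR adjusted p = 0.20). It varied least between plates: over the whole *Grem1* lineage its highest plate was 1.34 times its lowest, against 4.06 times for *Btg2*. *Btg2* stood at 22.2, 51.0 and 57.0 in the Clu group and at 19.1, 68.8 and 107 in the Cnmd group (log2 fold change 0.083 ± 0.35, adjusted p = 0.87). In the Cnmd group its levels were 19.1 to 38.5 on plates 1, 2 and 4 and 63.9 to 107 on plates 5 to 9. The exons of *Dusp1* overlap those of *Ergic1* on the opposite strand, and whether reads were counted by strand is not given in the sources used here, so reads from *Ergic1* may enter its count.

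**Figure D2:**
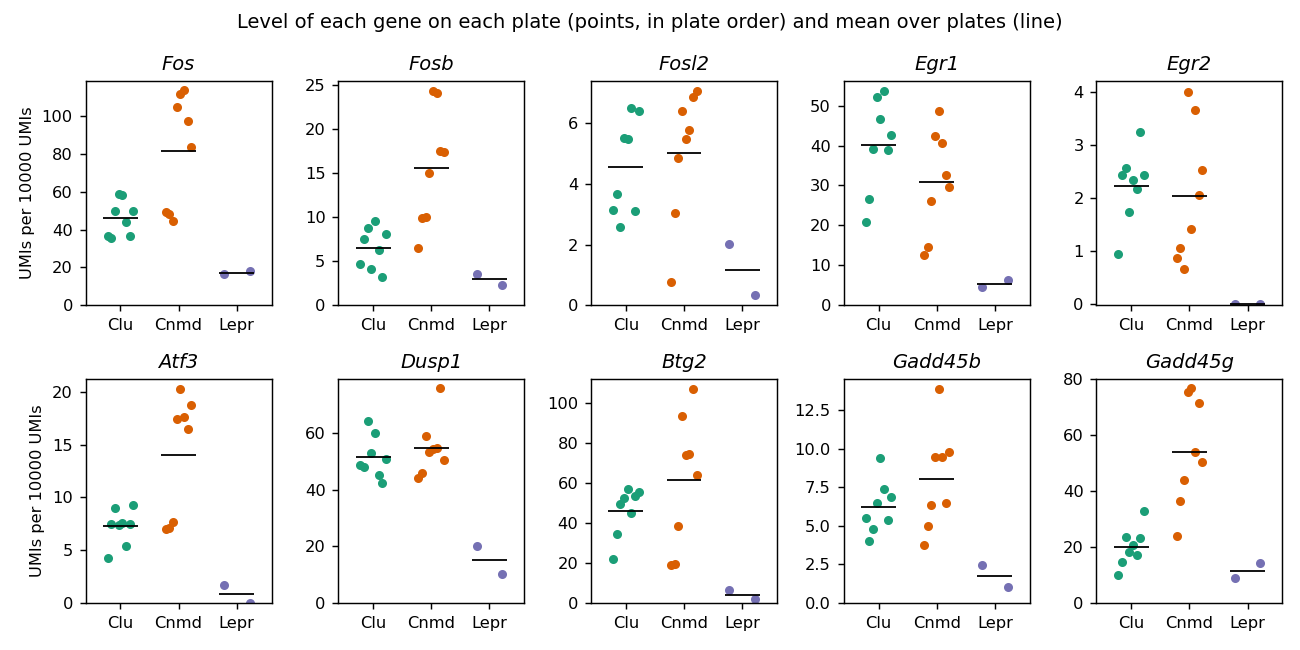
Level of each of the 10 genes in UMIs per 10000 UMIs (vertical axes, each from 0) in the Clu group, the Cnmd group and the *Lepr* lineage (horizontal axes). Points are plates in plate order (8, 8 and 2) and lines are means over plates. Within the Cnmd group, plates 1, 2 and 4 lie below plates 5 to 9 without overlap for 9 of the 10 genes, all but *Dusp1*. *Actb* and *Bhlhe41*, which are no members and are not drawn, divided there in the same way. The *Lepr*-lineage points lie below those of both groups for 7 genes and overlap them for *Fosb*, *Fosl2* and *Gadd45g*. Neither count was made over all genes tested, so neither is shown to be particular to the members.

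Calls on single members depended on how plates and scale entered the fit. Sums of the same plate deviated together, and with the plate as a replicate block 4 of 10 members were called, against 46.5% of all genes tested. *Gadd45g* (log2 fold change 1.06, edgeR adjusted p = 9.6e-05) and *Fosb* (0.85, adjusted p = 0.0075) were called as before. *Atf3* was called as higher in the Cnmd group (0.53, edgeR adjusted p = 0.042) and *Egr1* as lower (-0.80, adjusted p = 0.00015). On plates 1, 2 and 4 alone, where *Egr2* was not tested, 1 of 9 members was called without the block, *Egr1* (-1.05, edgeR adjusted p = 0.042), against 20.1% of all genes. With the block 4 of 9 were called there, against 23.8%: *Gadd45g* as higher in the Cnmd group (0.81, edgeR adjusted p = 0.010) and *Egr1* (-1.07, adjusted p = 0.0023), *Btg2* (-0.81, adjusted p = 0.012) and *Dusp1* (-0.45, adjusted p = 0.043) as lower. On plates 5 to 9 alone 5 of 10 were called without the block, against 33.1% of all genes, *Fos* (0.73), *Fosb* (1.34), *Atf3* (0.98) and *Gadd45g* (1.24) as higher and *Egr1* (-0.59) as lower. The same 5 were called there with the block, against 36.7%. *Fos*, *Fosb* and *Atf3* had negative log2 fold changes on plates 1, 2 and 4 alone, of -0.13, -0.029 and -0.29, none past the threshold. These values are TMM-scaled. From levels with no TMM, the log2 ratios on plates 1, 2 and 4 were 0.46, 0.40 and 0.19 for *Fosb*. They were 0.42, 0.45 and -0.15 for *Fos* and 0.72, -0.078 and -0.23 for *Atf3*. Over all alternatives run on this comparison, *Gadd45g* was called in 21 of 22 (adjusted p from 1.3e-08 to 0.11) and *Fosb* in 20 of 22 (1.0e-05 to 0.99). *Atf3* was called in 8 of 22 (0.00025 to 0.49), *Egr1* in 6 (0.00015 to 0.25) and *Fos* in 4 (0.0023 to 0.66).

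With library size alone in place of TMM, the log2 fold changes of all genes shifted up by a median of 0.35. Against that shift, *Fos* (0.82), *Fosb* (1.26), *Atf3* (0.96) and *Gadd45g* (1.43) were called as higher in the Cnmd group, 4 of 10 members against 48.8% of all genes. *Egr1* stayed negative at -0.37, and *Dusp1* (0.087) and *Fosl2* (0.15) turned from negative to positive. Of all genes called, 49.0% were higher in the Cnmd group with TMM and 75.1% with library size alone. The 2 scales also differ in the summed share: without the 20 most abundant genes in the total, the Cnmd group exceeded the Clu group on 5 of 8 plates rather than 7, and by 1.21 rather than 1.42 times in the means over plates. Without *Fos* in the sum it was also higher on 5 of 8 plates, at 246 against 185, or 1.33 times.

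**Figure D3:**
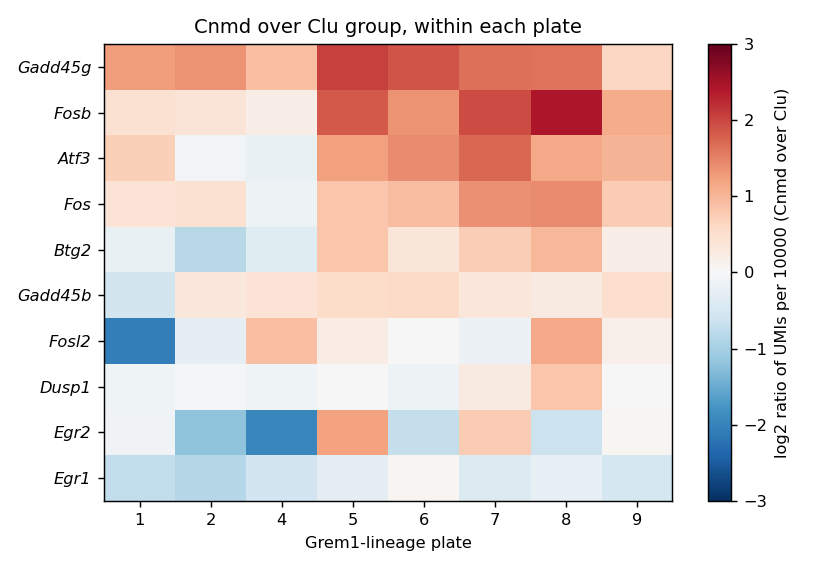
log2 ratio of the level in the Cnmd group over that in the Clu group (colour, red for higher in the Cnmd group) for each of the 10 genes (rows) on each *Grem1*-lineage plate (columns), from UMIs per 10000 with no TMM scaling. *Gadd45g* and *Fosb* are above 0 on 8 of 8 plates, and *Egr1* is below 0 on 7 of 8.

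A list of 36 other rapid-response genes also moved in both directions. Between the groups 17 were tested, of which 2 were higher and 6 lower in the Cnmd group, where 20.1% of all genes were called higher and 20.9% lower, with a median log2 fold change of -0.34. *Dnajb1*, a heat shock co-chaperone, was higher in the Cnmd group, at 44.4 ± 22.4 against 12.1 ± 3.98 per 10000 (log2 fold change 1.55, edgeR adjusted p = 0.0014), as was *Arc* (1.37), known as a neuronal activity gene. *Errfi1*, which restrains EGF receptor signalling, was lower, at 6.20 ± 2.77 against 19.7 ± 6.45 (-1.98, adjusted p = 2.9e-06). Also lower were the transcription factor genes *Cebpb* (-1.80) and *Bhlhe40* (-1.22), *Gem* (-1.48), which encodes a small GTPase, and *Ccnl1* (-1.21) and *Brd2* (-0.64), which encode a cyclin and a chromatin reader. The list was drawn up with earlier results of these data known.

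Against the *Lepr* lineage the members moved together. All 10 were lower in the *Lepr* lineage in the edgeR test, where 16.7% of the 2944 genes tested were called lower. A gene could pass the filter on low counts through the plates of 1 lineage alone. *Egr2*, *Atf3* and *Fosl2*, with 0, 11 and 15 *Lepr*-lineage UMIs, could thus hardly be called other than lower, and add little to this count. The median log2 fold change was -2.51 for the members and -0.11 for all genes. For 9 of the 10, both *Lepr*-lineage plates lay below all 8 *Grem1*-lineage plates, which held for 13.2% of all genes tested. The exception was *Fosl2*, which stood at 2.02 and 0.333 on the *Lepr*-lineage plates and at 1.81 or more on those of the *Grem1* lineage.

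*Fos* stood at 42.8, 70.7 and 92.6 per 10000 on *Grem1*-lineage plates (lowest, median and highest) and at 16.3 and 18.2 on *Lepr*-lineage plates 1 and 2. The log2 fold change, *Lepr* minus *Grem1* lineage, was -2.43 ± 0.45 (edgeR adjusted p = 0.00085). *Fosb* stood at 5.71, 10.8 and 19.1 and at 3.58 and 2.33, with a log2 fold change of -2.45 ± 0.49 (adjusted p = 0.0014). *Fos* also gave the most UMIs of any member in either lineage, 7903 of 34038 in the *Grem1* lineage and 214 of 750 in the *Lepr* lineage. *Fosl2* rested on 15 *Lepr*-lineage UMIs, with a log2 fold change of -2.49 ± 0.63 (edgeR adjusted p = 0.0074). Without *Lepr*-lineage plate 2 it was -1.79 (adjusted p = 0.10) and without plate 1 -4.40 (adjusted p = 0.0075), and it was called in 20 of 23 alternatives (adjusted p from 3.5e-08 to 0.20).

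The members with the lowest log2 fold changes were *Egr2*, *Btg2*, *Atf3* and *Egr1*. *Egr2* had no UMI in 160 *Lepr*-lineage cells and 256 in the *Grem1* lineage, where its plates stood at 0.905, 2.13 and 3.07. Set against a floor of 3 counts per plate it was at least 4.4-fold lower in the *Lepr* lineage, a limit that covers counting error only. *Btg2* stood at 20.5, 59 and 83.0 against 6.22 and 2.00 (log2 fold change -4.22 ± 0.71, edgeR adjusted p = 0.00039). *Atf3* stood at 5.78, 11.5 and 15.7 against 1.71 and 0, the latter with no UMI on plate 2 (-4.13 ± 0.73, adjusted p = 0.00056). With 11 *Lepr*-lineage UMIs, all from plate 1, the log2 fold change of *Atf3* was -3.23 without plate 2 and -10.3 without plate 1, the latter against a plate at 0 and no bound. *Egr1* stood at 16.2, 35.0 and 48.2 against 4.51 and 6.34 (-3.20 ± 0.54, adjusted p = 0.00041).

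*Gadd45g*, *Dusp1* and *Gadd45b* were also lower, with *Gadd45g* closest to its *Grem1*-lineage levels. It stood at 17.8, 38.2 and 56.8 on *Grem1*-lineage plates against 8.86 and 14.2 (log2 fold change -2.26 ± 0.49, edgeR adjusted p = 0.0026). *Dusp1* stood at 46.2, 51.9 and 61.9 against 20.1 and 10.2 (-2.28 ± 0.36, adjusted p = 0.00025). *Gadd45b* stood at 4.52, 7.10 and 12.3 against 2.49 and 1.0 (-2.53 ± 0.53, adjusted p = 0.0019). The *Lepr* lineage was not low in all members on the same plate: of the 9 members with UMIs, plate 1 was the higher for 6 and plate 2 for *Fos*, *Egr1* and *Gadd45g*. On plate 2, 1 cell held 92 of the 327 member UMIs, and its part in this contrast was not tested.

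**Figure D4:**
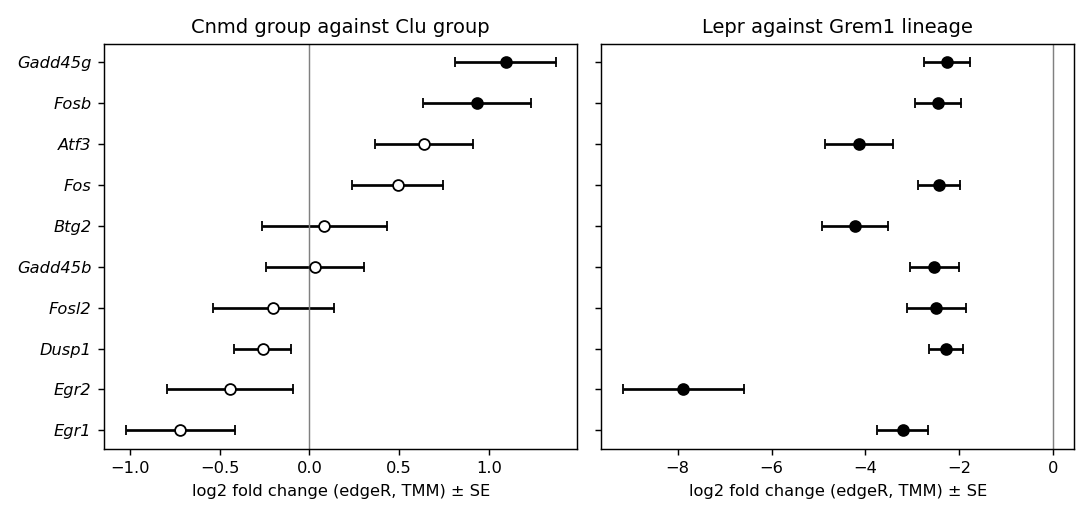
log2 fold changes from edgeR with TMM scaling (horizontal axes) of the 10 genes (rows) for the Cnmd against the Clu group (left) and the *Lepr* against the *Grem1* lineage (right, on a wider scale). Bars are ± 1 SE and filled points have an adjusted p under 0.05, which 2 genes had on the left and all 10 on the right. The fit on the left did not pair the groups by plate. The value of *Egr2* on the right rests on no UMI in the *Lepr* lineage and is no bound.

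With library size alone the members were also lower in the *Lepr* lineage, by log2 fold changes from -1.76 (*Gadd45g*) to -3.72 (*Btg2*) besides *Egr2*, while the log2 fold changes of all genes shifted up by a median of 0.46. Each *Grem1*-lineage group against the *Lepr* lineage also gave 10 of 10 members as lower. The 5 *Lepr*-lineage cells with the most UMIs held 24.6% of the UMIs of that lineage, with a share of 38.3 per 10000 in the members against 67.5 in the other cells, and all 10 members were called lower without them. All 10 were also called lower when the minimum of 350 genes was set over the genes listed for both lineages. Over the 36 other rapid-response genes, 24 were tested, of which 17 were lower and 1 higher in the *Lepr* lineage, where 16.7% of all genes were called lower and 12.2% higher. The higher gene was *Ccl2*, a chemokine that recruits monocytes (log2 fold change 6.58, edgeR adjusted p = 9.7e-06), counted at 83 UMIs in *Lepr*-lineage cells and 5 in *Grem1*-lineage cells. Lower genes included *Bhlhe40* (-6.12), *Ctgf* (-4.47), which encodes a matrix protein, *Dnajb1* (-4.13), *Arc* (-3.93), *Dusp8* (-3.55) and *Gem* (-3.07), and *Csrnp1*, with no UMI among *Lepr*-lineage cells and 188 among *Grem1*-lineage cells.

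Within each group the share of the members spread widely from cell to cell. The 10th percentile, median and 90th percentile over cells were 82.7, 195 and 426 per 10000 in the Clu group and 68.6, 329 and 631 in the Cnmd group. In the *Lepr* lineage they were 0, 38.8 and 94.5, and 25 of 160 cells had no UMI of any member. Highest cells were alike in the groups, at 1025 in both, and the highest *Lepr*-lineage cell had 92 member UMIs of 970, or 948 per 10000. The Cnmd group thus reached both lower at the 10th percentile and higher at the 90th than the Clu group.

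**Figure D5:**
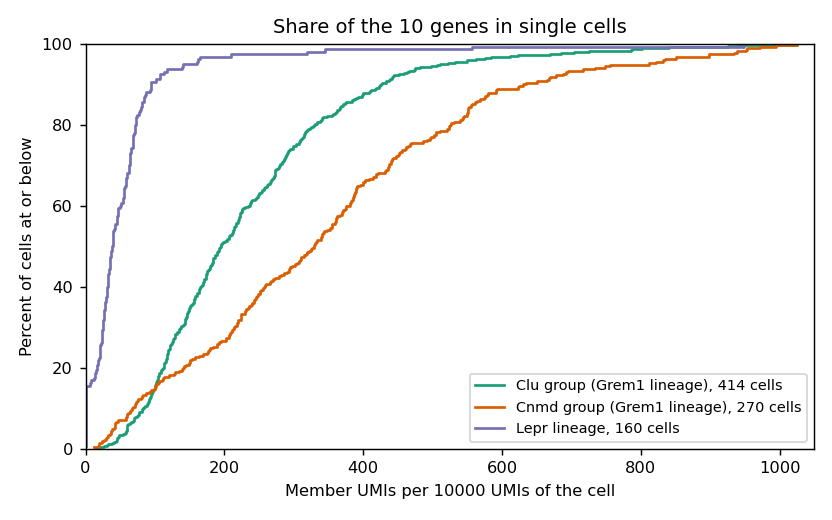
Cumulative percent of cells (vertical axis) by the share of the 10 genes in the UMIs of the cell, per 10000 (horizontal axis). UMIs are those of the genes listed for both lineages. Drawn are 414 cells of the Clu group, 270 of the Cnmd group and 160 of the *Lepr* lineage. The medians are 195, 329 and 38.8, and the curves of the Clu and Cnmd groups cross at low shares.

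Counting error accounts for a small part of this spread. The variance of member UMIs per cell was 15.2 times that of Poisson counts at the share of the plate and the depth of the cell in the Clu group, 27.8 times in the Cnmd group and 17.7 times in the *Lepr* lineage. The variation beyond counting, as a coefficient of variation (CV), was 62.1%, 50.8% and 108%. In the *Lepr* lineage this value is unstable, at 63.0% on plate 1, 154% on plate 2 and 181% over 144 cells thinned to 272 UMIs. Thinned to 796 UMIs per cell, which left out 60 cells of the Clu group and 8 of the Cnmd group, it was 61.5% and 51.6%. On single plates the CV beyond counting ranged from 45.5% to 72.7% in the Clu group and from 35.7% to 86.0% in the Cnmd group. Differences between plates held 8.27% of the sum of squares of the log2 share over cells in the Clu group and 24.0% in the Cnmd group, the rest lying between cells of the same plate.

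In both groups single members varied more than their sum. In the Clu group the CV beyond counting ran from 82.6% for *Egr1* to 156% for *Egr2*, and in the Cnmd group from 55.1% for *Fos* to 154% for *Egr2*. For comparison, the median over the 207 genes of at least 500 CPM (UMIs scaled to equal library totals) in the Clu group was 70.9%, and over the 280 such genes in the Cnmd group 39.8%. The 8 members at this level in the Clu group and the 9 in the Cnmd group all lay above these medians, with 60.9% to 81.2% and 66.8% to 88.9% of the genes below them. *Fos* and *Egr1* were the least variable of the members in the Cnmd group, *Atf3* and *Fosl2* the most variable of those in this comparison.

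Over cells the members rose and fell together, more so in the Cnmd group. After centring by plate, 45 of 45 pairs of members correlated positively over its 270 cells, with a median Pearson correlation of 0.29 and the highest value for *Fos* and *Egr1* (0.57). Next came *Fosb* and *Btg2* (0.49) and *Fos* and *Btg2* (0.49). Over the 414 cells of the Clu group 42 of 45 pairs were positive, with a median of 0.099 and a highest value of 0.32. Pairs of other genes were not correlated for comparison, so whether this is particular to the members was not tested. The Clu group has fewer UMIs per cell, whose part in this difference was not tested, and cells of 1 plate share their library, so these are descriptions. The share of the members followed the depth of the cell weakly, with a Spearman correlation of 0.037 in the Clu group and -0.10 in the Cnmd group, and that with *Actb* over cells of a plate was 0.14 and 0.16.

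At equal depth a typical cell had several members detected. Thinned to 796 UMIs, the median was 5 of 10 members in the Clu group and 6 in the Cnmd group. *Fos* was detected in 86.7% of thinned cells of the Clu group and 93.5% of the Cnmd group (93.0% and 97.4% without thinning), and *Fosb* in 36.2% and 61.8% (44.4% and 84.4%). *Egr1* was at 79.1% and 79.4% (84.5% and 90.4%), close in both groups. To include the *Lepr* lineage, cells were thinned to 272 UMIs, which left out 16 *Lepr*-lineage cells. The median number detected was then 1 in the *Lepr* lineage, 3 in the Clu group and 4 in the Cnmd group, and 30.6%, 2.17% and 3.33% of cells had none. No group here is known to lack these transcripts, so no background share of cells from free RNA could be set beside these values.

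By a fixed rule, the genes whose pattern was most like that of the summed members were sought among those that are no member. Over the 16 sums of plate and group, after the mean of each group was taken off, the highest Pearson correlations over 1414 genes were those of *Bhlhe41* (0.93), *Abhd2* (0.92), *Dnajb1* (0.92), *Cst3* (0.92), *Actb* (0.91) and *Ctgf* (0.90). In the Cnmd group *Bhlhe41* stood at 9.87 to 23.9 per 10000 on plates 1, 2 and 4 and at 39.6 to 75.2 on plates 5 to 9. It was picked by its likeness over these same sums, so this division is no separate result. It divided in the Clu group too, at 5.03 to 11.5 and 15.4 to 17.0, where the summed members overlapped. Over the 684 cells, centred by plate and group, the highest Spearman correlations over 951 genes were those of *Bhlhe40* (0.41), *Dnajb1* (0.36), *Cebpb* (0.32), *Gm26825* (0.29), *Errfi1* (0.24) and *Btg1* (0.23). Of these 6, 5 are on the list of other rapid-response genes, *Gm26825* being the exception. That list was drawn up with earlier results of these data known. Its other genes with a value over cells all stood lower. They were *Ddit3* (0.19), *Ccnl1* (0.15), *Ctgf* (0.14), *Cebpd* (0.14), *Cyr61* (0.11), *Ddit4* (0.094) and *Brd2* (0.046). The sums of a plate share a library, so neither ranking carries a test.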

How the data were processed

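Cells were grouped by the lineage in the sample labels, and *Grem1*-lineage cells by the rule above. Whole-number UMI counts of genes in single wells, with no normalisation, were deposited by the authors; the submitters' processing notes name UMI-tools, STAR, featureCounts, SAMtools, Seurat and the build mm10, without versions. For the *Grem1* lineage, 29183 genes with complete values were used and 1 with incomplete values was left out; later genes (*Jun* and *Junb* among them) were not analysed here in that lineage. Library size was set by these genes, which held 40.9% of the UMIs of kept *Lepr*-lineage cells.

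The members, lists and alternatives were chosen with earlier results of these data known. Counts were summed per plate and group (at least 10 cells) and tested with edgeR 4.0.16 in R 4.3.3 (TMM, filterByExpr, quasi-likelihood test, Benjamini-Hochberg over all genes tested). The 4 splitting genes were left out of the test between groups. The SE was taken as the size of the log2 fold change over the root of the F statistic. Plate sums ranged from 51229 to 106289 UMIs in the Clu and Cnmd groups and from 59981 to 64310 in the *Lepr* lineage, so a level of 1 per 10000 rests on few UMIs. The pairing by plate was checked: deviations of the sums of the same plate correlated over genes at 0.17 to 0.44, above 0.1 on 8 of 8 plates, and the plate comes from the labels. For plates 1 and 2 of both lineages the value was 0.057, and they share only a number.

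Named besides the members were, from the other list, called genes whose mean reached 50 CPM (at most 8 per comparison by fold change), the 6 genes most like the members in each of 2 rankings, and *Actb*, *Eef1a1* and *Gapdh* as references. Coordinates are from GENCODE M21 and RefSeq (GRCm38). Alternatives were DESeq2 1.42.0, its size factors, library size alone, filters, the plate as a block, left-out plates, other splits and thinning. The fits were tested on simulated counts with known changes. Between groups edgeR recovered 20% of 1.5-fold and 87.7% of 2-fold changes, with 3.48% false calls. Between lineages it recovered 19.4% of 2-fold and 74.2% of 4-fold changes, with 3.08% false calls. A member that was not called may therefore still differ. Doublets were not called: single cells were sorted into wells.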

Additional observations from a re-analysis of the deposited data

Results flagged for a closer look

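The levels of the members and their sum in the Clu group, the Cnmd group and the whole *Grem1* lineage gave 33 series of 8 plates, in which a plate far from the others was sought with Dixon's ratio; chance alone gives about 1 in 20. Only *Dusp1* in the Cnmd group had such a plate: plate 8 stood at 75.9 per 10000 UMIs and the next plate at 58.9, a gap of 0.54 of the whole range, past the 95% limit.

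Wells under the minimum of 350 detected genes entered no comparison. The 84 such wells of the *Grem1* lineage held 39804 UMIs, of which 727 were of the members, a share of 183 per 10000, and 81 of them had at least 1 member UMI. The share lies below the means over plates of the kept Clu (231) and Cnmd (327) groups.

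Rapid-response genes outside the 29183 shared genes were read in the *Lepr* lineage alone. Of 39 such genes on a fixed list, 37 had UMIs, and their summed level was 60.2 per 10000 UMIs of all listed genes on plate 1 and 30.0 on plate 2, while the 10 members stood at 26.6 and 22.5 on this scale. The genes with the most UMIs were *Nfkbia*, an inhibitor of NF-kappa-B (184 UMIs, in 43.8% of cells), *Hes1*, a Notch target (171, 48.8%), *Junb* (112, 28.8%) and *Jund* (98, 24.4%). Over the 160 cells the summed list and the summed members had a Spearman correlation of 0.35, a description over cells of shared libraries.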

How the results depend on the processing

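Direction held for the members between lineages in all alternatives run, with 7 to 10 called. Between the groups, 2 members were called (439 genes in all) and 4 (704) with no filter on low counts, 4 with library size alone, 4 with the plate as a replicate block (498 genes), 1 (235) on plates 1, 2 and 4 alone and 4 (278) there with the block, and 5 on plates 5 to 9 alone with or without the block. With a minimum of 500 genes 284 of 778 genes were called, fewer genes being tested. Over all plates the block changed the calls of *Atf3* and *Egr1* and of no other member, and on plates 1, 2 and 4 those of *Btg2*, *Dusp1* and *Gadd45g*. Leaving out 1 plate gave 2 to 4 members and 379 to 435 genes; without plate 1 *Egr1* (-0.69) and *Atf3* (0.67) were also called, without plate 2 or 4 *Atf3* (0.74, 0.79). Signs turned for members that had not passed or no longer passed the threshold, except where named: with library size alone *Fosl2* (0.15) and *Dusp1* (0.087), with 500 genes *Btg2* (-0.011) and *Gadd45b* (-0.033), without plate 6 *Gadd45b* (-0.026; up to 0.12 without another plate), without plate 8 *Btg2* (-0.027; up to 0.19), and with the block *Btg2* (-0.13) and *Gadd45b* (-0.031). On plates 1, 2 and 4 the signs of the TMM-scaled fold changes turned for *Fos* (-0.13), *Fosb* (-0.029), *Atf3* (-0.29), *Btg2* (-0.81) and *Gadd45b* (-0.28). With the block there they turned for *Fos* (-0.11), *Fosb* (-0.0038), *Atf3* (-0.24), *Btg2* (-0.81, called, edgeR adjusted p = 0.012) and *Gadd45b* (-0.28). Levels with no TMM scaling did not all turn there, as given above. Between lineages 851 genes were called, 529 to 849 without 1 plate (lowest without *Lepr*-lineage plate 2), 436 on plates 1 and 2 of each lineage with the number as a replicate block and 451 without it, where *Fosl2* and *Gadd45g* missed the threshold and *Egr2* was not tested; with TMM 42.1% of calls were higher in the *Lepr* lineage, with library size alone 68.4%. The mean summed share without *Fos*, which is also the member with the most UMIs, was 185 in the Clu group, 246 in the Cnmd group and 42.9 in the *Lepr* lineage; without the 20 most abundant genes in the total it was 354 in the Clu group, and as a median over cells 43.6 in the *Lepr* lineage. The mean CV beyond counting over the *Lepr*-lineage plates was 109% and 173% after thinning to 272 UMIs. The causes were not tested. With 2 *Lepr*-lineage plates and few UMIs per cell, levels under 1 per 10000 are not resolved.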

Other observations

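At the other end of the ranking by likeness to the summed members over the 16 sums of plate and group, the 6 lowest of 1414 Pearson correlations, named after their values were seen, were those of *Cox5b* (-0.86), *Eno1* (-0.81), *Atp5c1* (-0.80), *Gm11560* (-0.78), *Eno1b* (-0.78) and *Eif5a* (-0.78). *Eno1* and *Eno1b* are near-identical copies whose reads the counting could split. Over the 684 cells, by contrast, the lowest correlations were weak, from -0.22 (*Gm23935*) to -0.15 (*Col1a2*), and no gene of the 6 lowest was shared between the rankings.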
